A study of Mus musculus with 58 samples.

Results

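Glutathione S-transferases join the tripeptide glutathione to electrophiles such as oxidised lipids, drug epoxides and plant toxins, so that the product can be exported and excreted. In mouse liver the cytosolic enzymes are dimers whose main classes are pi, alpha and mu, each encoded by a cluster of near-copies. Many alpha and mu genes respond to the oxidant-sensing factor NRF2 and to the drug-sensing receptors CAR and PXR, and the pi genes Gstp1 and Gstp2 are expressed more in male than in female mouse liver. The 10 genes described here are the rows of the deposited count table, which has 24537 genes, whose symbol is Gstp1, Gstp2 or Gstp3 (pi class), Gsta2, Gsta3 or Gsta4 (alpha class), or Gstm1, Gstm2, Gstm3 or Gstm6 (mu class). All 10 passed the filter on low counts in every comparison.

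The data are polyA RNA-seq of whole livers of male C57BL6/J mice in 58 libraries. Every mouse carried an AAV8 vector with the TBG promoter, which is active in hepatocytes. The vector expressed either Myc, a transcription factor that drives cell growth, or the fluorescent protein mApple, and the mice then received the JAK1 and JAK2 kinase inhibitor ruxolitinib (45 mg/kg, by gavage) or vehicle. Among old mice, 14 livers carried Myc and had ruxolitinib, 11 carried Myc and had vehicle, 9 carried mApple and had the drug, and 8 carried mApple and had vehicle. Young mice, aged 4 months, gave 10 livers with Myc under ruxolitinib and 6 with mApple under vehicle. The first sequencing batch held 18 libraries of old mice aged 25 months. The second held 40, with old mice aged 24 months and all the young ones, so comparisons with young mice used the second batch alone.

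Libraries held 10.68 to 40.98 M counts in exons (M for mega; median 14.6 M). Levels below are counts per M after TMM scaling over all libraries. Myc itself ran from 24.2 to 109 counts per M in old Myc ruxolitinib livers, from 6.62 to 129 in old Myc vehicle livers, and from 2.34 to 57.6 in old mApple livers. In young livers it ran from 36.5 to 61.8 with Myc and ruxolitinib and from 4.3 to 23.2 with mApple and vehicle. The lowest old Myc vehicle value belongs to the library labelled 870, which lies among the mApple values. The highest old mApple value, 57.6, belongs to library 855 (old mApple vehicle, first batch), which lies among the Myc values. The 15 hepatocyte markers were detected in every group, with a summed level of 65308 to 255945 counts per M. The 4 lowest sums of the first batch, 65308 to 125982, belong to libraries 860 and 861 (old Myc ruxolitinib) and 864 and 865 (old mApple ruxolitinib), and results that include them are given without them where that matters.

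The genes lie in 4 places in the mm10 genome, at the coordinates of the deposited table. Gstp1 (chr19:4035411-4037912), Gstp2 (chr19:4040288-4042221) and Gstp3 (chr19:4057487-4059294) stand side by side on the minus strand. Gstm1 (chr3:108012250-108017973), Gstm2 (chr3:107981702-107986436), Gstm3 (chr3:107963696-107969174) and Gstm6 (chr3:107938848-107943749) share another cluster, also on the minus strand. Gsta2 (chr9:78331020-78347145, minus strand) and Gsta4 (chr9:78191966-78209349, plus strand) lie on chromosome 9, where the near-copies Gsta1, Gm3776 and Gm10639 lie between them. Gsta3 (chr1:21240585-21265575, plus strand) has its own place on chromosome 1. Counts were taken over the exons of 1 transcript per gene.

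How far near-copies can be told apart by short reads decides how each row can be read, so the first 75 bases of coding sequence, as long as 1 read, are set side by side for each class. They come from GENCODE M21 transcripts, run 5′ to 3′ from the start codon, and capitals mark every position at which the genes printed together differ. For the pi genes these are:

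Gstp1: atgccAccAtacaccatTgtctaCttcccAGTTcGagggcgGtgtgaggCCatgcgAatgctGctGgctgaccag

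Gstp2: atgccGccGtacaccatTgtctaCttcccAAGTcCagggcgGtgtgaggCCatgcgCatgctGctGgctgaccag

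Gstp3: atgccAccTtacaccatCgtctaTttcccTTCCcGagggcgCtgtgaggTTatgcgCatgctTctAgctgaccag

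Gstp2 differs from Gstp1 at 6 of these positions and Gstp3 from Gstp1 at 13. For Gsta2 and the near-copies Gsta1 and Gm10639 they are:

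Gsta2: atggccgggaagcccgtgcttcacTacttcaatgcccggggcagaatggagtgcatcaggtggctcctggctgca

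Gsta1: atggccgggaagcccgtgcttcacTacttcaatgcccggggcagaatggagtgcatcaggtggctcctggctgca

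Gm10639: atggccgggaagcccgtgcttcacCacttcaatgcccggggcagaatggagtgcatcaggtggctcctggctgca

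Gsta1 has the same letters as Gsta2 in this stretch, and Gm10639 differs at 1 position. For the mu genes they are:

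Gstm1: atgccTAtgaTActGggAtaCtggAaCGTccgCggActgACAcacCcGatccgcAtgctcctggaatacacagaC

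Gstm2: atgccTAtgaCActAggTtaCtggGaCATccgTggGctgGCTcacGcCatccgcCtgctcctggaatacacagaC

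Gstm3: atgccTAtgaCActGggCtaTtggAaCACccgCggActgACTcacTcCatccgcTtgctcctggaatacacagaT

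Gstm6: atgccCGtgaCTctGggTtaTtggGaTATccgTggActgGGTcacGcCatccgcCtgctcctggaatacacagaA

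Over the whole coding sequence Gstp1 and Gstp2 matched at 98.1% of aligned bases, and Gstp1 and Gstp3 at 74.5%. Of all windows of 75 bases in its transcript, Gstp1 shared 57.7% with another gene exactly, Gstp2 68.2% and Gstp3 0. Gsta2 shared 46.9% of its windows, with Gsta1, Gm3776 and Gm10639, while Gsta3 and Gsta4 shared none. The Gsta3 windows came from a transcript of 742 bases, while its counted row is 1505 bases long, so part of that row was not checked. Among the mu genes the shared part was 14.8% in Gstm1, 3.13% in Gstm2, 21.6% in Gstm3 and 5.47% in Gstm6. The rows of Gstp1 and Gstp2, and those of Gsta2 and its neighbours, therefore rest on reads that can be split or lost between copies, and how reads with several places were counted is not given in the sources used here. The rows of Gstp3, Gsta4, Gstm2 and Gstm6 are close to free of that uncertainty, and so is the part of the Gsta3 row that was checked.

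Per kb of transcript, Gstm1, Gstp1 and Gsta3 were the top 3 members in each of the 6 groups of the second batch. There Gstm1 stood first in old Myc ruxolitinib livers, at 2708 ± 1386 counts per M and kb (SD, n = 10), against 1323 ± 715 for Gstp1 and 989 ± 125 for Gsta3 in the same livers. In young Myc ruxolitinib livers the order was the other way round, with Gstp1 at 2216 ± 263, Gstm1 at 1356 ± 260 and Gsta3 at 1115 ± 116 (SD, n = 10). Old mApple vehicle livers had Gstp1 at 1646 ± 685, Gstm1 at 1367 ± 189 and Gsta3 at 1021 ± 99.1 (SD, n = 4). Young mApple vehicle livers had Gstp1 at 2397 ± 662, Gstm1 at 1278 ± 178 and Gsta3 at 1156 ± 127 (SD, n = 6). The gap between Gstp1 and Gstm1 was larger than their SD in both young groups and within it in all 4 old groups.

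Further down the order, neighbours in old Myc ruxolitinib livers did not differ beyond their SD until Gstp3. In old Myc ruxolitinib livers of the second batch Gstm3 had 350 ± 211 and Gstp2 147 ± 89.8 counts per M and kb. They were followed by Gstm2 (82 ± 44), Gsta2 (78.9 ± 36.9), Gsta4 (73.3 ± 21.5) and Gstm6 (57 ± 11.3), each within 1 SD of the next. Gstp3 was last in every group of the second batch, at 33.6 ± 5.1 in old Myc ruxolitinib livers and 16.7 ± 2.23 in young ones (SD, n = 10 each). All 10 members together took 0.677% ± 0.262 of the counts in old Myc ruxolitinib livers, against 0.545% ± 0.0438 in young Myc ruxolitinib livers (SD, n = 10 each).

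**Figure D1:**
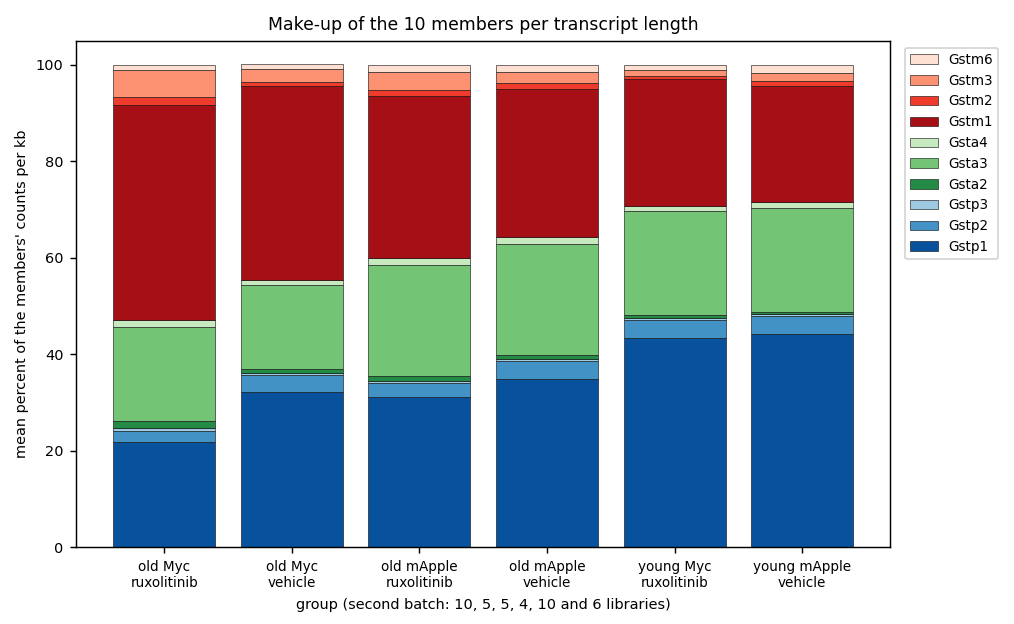
Stacked bars give the mean percent of the members' summed counts per kb (vertical axis) for each member in each group of the second batch (horizontal axis). Gstm1 made up 44.6% in old Myc ruxolitinib livers and 26.3% in young ones, while Gstp1 made up 21.8% and 43.3% in the same groups.

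The table's first batch bears on the level of Gstm1. In old mApple vehicle livers Gstm1 had 3452, 4168, 4344 and 5366 counts per M in the first batch and 1714, 1802, 1458 and 2047 in the second. The ranges did not overlap, and batch in old mice cannot be told apart from the age of 25 against 24 months. Comparisons of the vectors, and of ruxolitinib with vehicle, among old groups therefore carry a batch term, and values are also given within each batch. Old Myc ruxolitinib against old mApple vehicle livers were compared in the second batch alone, without a batch term.

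**Figure D2:**
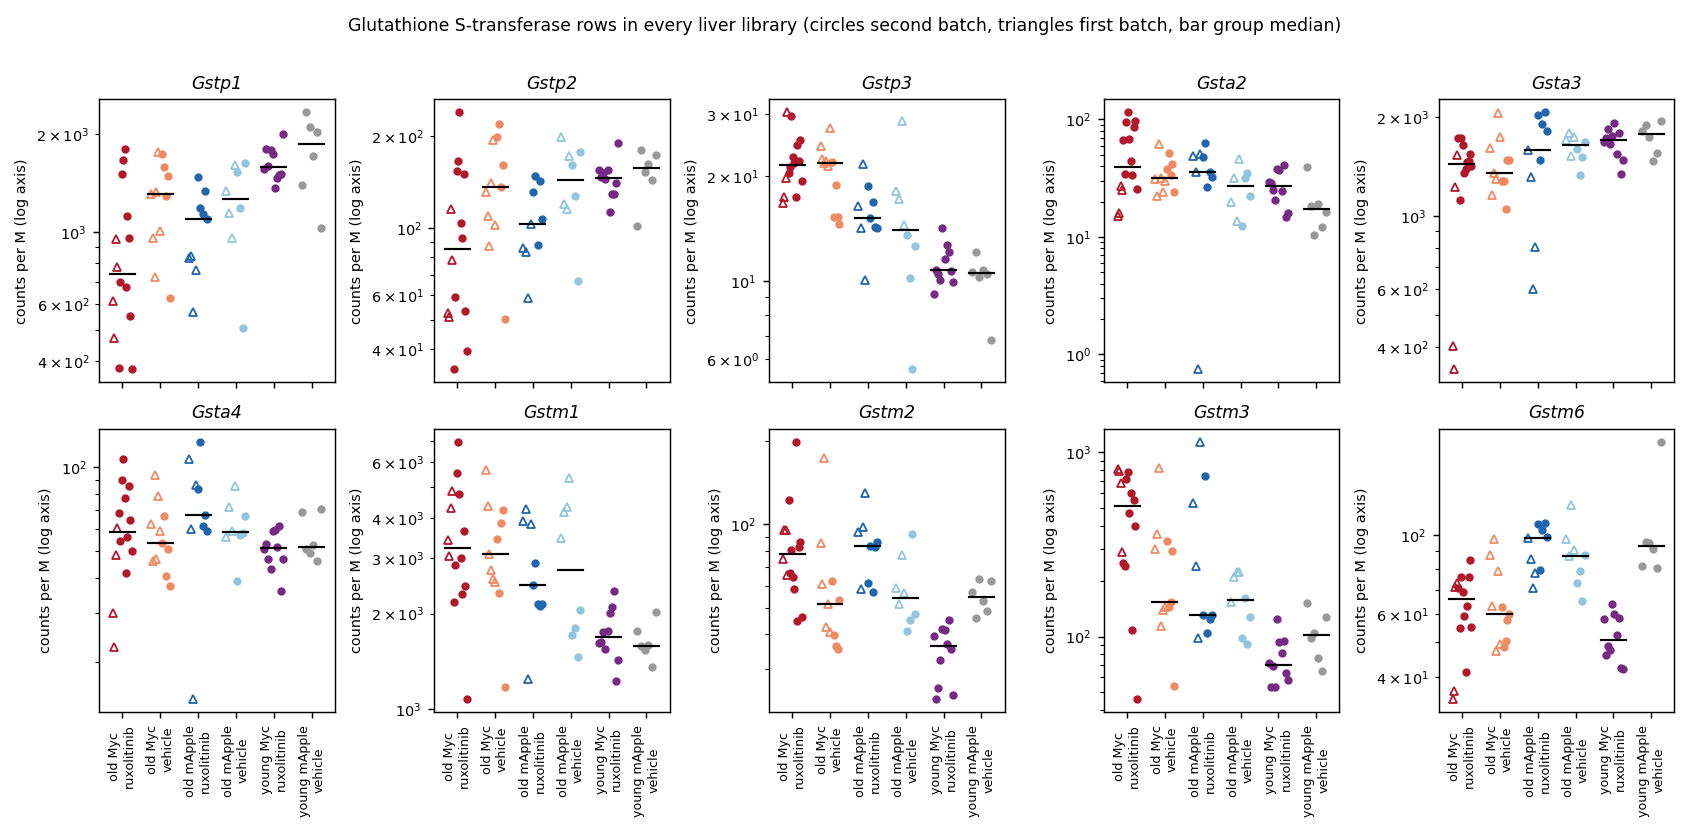
Each panel plots 1 member in counts per M (vertical log axis) in every library, by group (horizontal axis); triangles are first-batch and circles second-batch libraries, and bars are group medians. Gstm3 in old Myc ruxolitinib livers spans 45.7 to 809, against 53.5 to 125 in young Myc ruxolitinib livers.

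Age was compared within the Myc and ruxolitinib mice in the second batch, 10 old against 10 young. Of the members 8 passed the threshold of an adjusted p of 0.05: Gstm3, Gstm2, Gsta2, Gstp3, Gstm1, Gsta4 and Gstm6 were higher in old livers and Gstp1 was lower. The background is wide here, since 18.1% of all 12760 tested genes were called higher and 15.6% lower. The members' median log2 fold change was 0.75, against 0.02 over all tested genes.

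Gstm3, a mu class gene, had 45.7 counts per M in the lowest, 434 in the median and 782 in the highest old liver, against 53.5, 70.5 and 125 in young livers. Of the old livers 8 of 10 lay above the highest young one and library 1158 lay below the lowest. The log2 fold change was 2.47 ± 0.36 (SE; edgeR quasi-likelihood, adjusted p = 3.67e-05). Gstm2, from the same cluster, ran over 44.8, 73.6 and 198 counts per M in old livers and 23.3, 36.2 and 45 in young livers. All but 1 of the 10 old livers lay above every young one, with a log2 fold change of 1.33 ± 0.23 (SE; adjusted p = 0.000184). Gstm1, the most abundant mu gene in these livers, ran over 1074, 2924 and 6944 counts per M in old livers and 1222, 1687 and 2354 in young ones. In all, 7 old livers exceeded the young range, library 1158 was again below all of them, and the log2 fold change was 1.02 ± 0.24 (SE; adjusted p = 0.00246). Gstm6 was called with a smaller difference, 0.35 ± 0.11 (SE; adjusted p = 0.0188), and its groups overlapped widely at 41.2 to 84.9 counts per M in old and 42 to 64.1 in young livers.

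Of the alpha genes, Gsta2, which acts on organic hydroperoxides, had 25.5 (lowest), 67.9 (median) and 115 (highest) counts per M in old livers, against 14.9, 26.9 and 40.6 in young livers. Of the old livers 7 stood above the young range, and the log2 fold change was 1.30 ± 0.26 (SE; adjusted p = 0.000703). With the reads of Gsta1, Gsta2, Gm3776 and Gm10639 summed into 1 row, which removes the split between these copies, the log2 fold change was 1.74 ± 0.323 (SE; adjusted p = 0.000397). Gsta4, which conjugates the lipid peroxidation product 4-hydroxynonenal, ran over 41.8, 66.5 and 107 counts per M in old livers and 36, 51.4 and 61.4 in young ones. Its log2 fold change was 0.48 ± 0.14 (SE; adjusted p = 0.0133). Gsta3, known in mice for conjugating aflatoxin epoxide, differed by -0.15 ± 0.08 (SE; adjusted p = 0.17), with 1120 to 1737 counts per M in old and 1347 to 1919 in young livers.

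The pi genes split. Gstp1 ran over 378, 829 and 1789 counts per M in old livers and 1358, 1577 and 1994 in young ones, with 7 of the 10 old livers below the whole young range and 3 within it. The log2 fold change was -0.72 ± 0.24 (SE; adjusted p = 0.0254). Gstp2, whose reads overlap with those of Gstp1, ran over 34.3, 98.1 and 239 counts per M in old livers and 113, 145 and 189 in young livers. Of the old livers 6 lay below the young range and 1 above it, and its log2 fold change of -0.39 ± 0.27 (SE) did not pass the threshold (adjusted p = 0.286). Gstp3 had 17.4, 22 and 29.6 counts per M in old livers and 9.19, 10.7 and 14.2 in young ones, and these ranges did not overlap. The log2 fold change of Gstp3 was 1.03 ± 0.09 (SE; adjusted p = 8.63e-08), with the smallest standard error relative to its size of all 10 members. A row that sums Gstp1, Gstp2 and Gstp3, which is mostly Gstp1, differed by -0.67 ± 0.239 (SE; adjusted p = 0.0342).

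The old livers differed among themselves more than the young ones. The coefficient of variation was 60.3% for Gstm3, 54% for Gstp1 and 51.2% for Gstm1 in old Myc ruxolitinib livers of the second batch, against 29.6%, 11.9% and 19.2% in young Myc ruxolitinib livers. Leaving out each of the 20 libraries in turn kept all 8 calls, with log2 fold changes of 2.33 to 2.60 for Gstm3 and -0.86 to -0.63 for Gstp1. Fitting all 58 libraries together left 6 calls, without Gsta4 (0.29, adjusted p = 0.284) and Gstm6 (0.24, adjusted p = 0.185).

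Other measures moved with age in the same mice. Myc was lower in the old livers, at 31.3 ± 6.13 against 51.5 ± 7.33 counts per M in young livers (SD, n = 10 each; log2 fold change -0.70 ± 0.10, SE; adjusted p = 3.33e-05). The 12 leukocyte markers summed to 11.3 to 51.3 counts per M in old and 12.9 to 21.9 in young livers, with 4 of the 5 tested called higher. The 11 Kupffer cell markers summed to 208 to 537 and 181 to 411, with 4 of 11 called higher. Of all tested genes 18.1% were called higher. The 9 endothelial markers summed to 117 to 326 in old and 232 to 416 in young livers, with 6 of 9 lower, and the 15 hepatocyte markers to 113025 to 185913 and 108967 to 136980. In each of these lists no marker was at 0 in all livers of a group. The part of these differences in the member results was not tested. In whole liver, fewer cells of a type and less RNA per cell cannot be told apart.

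**Figure D3:**
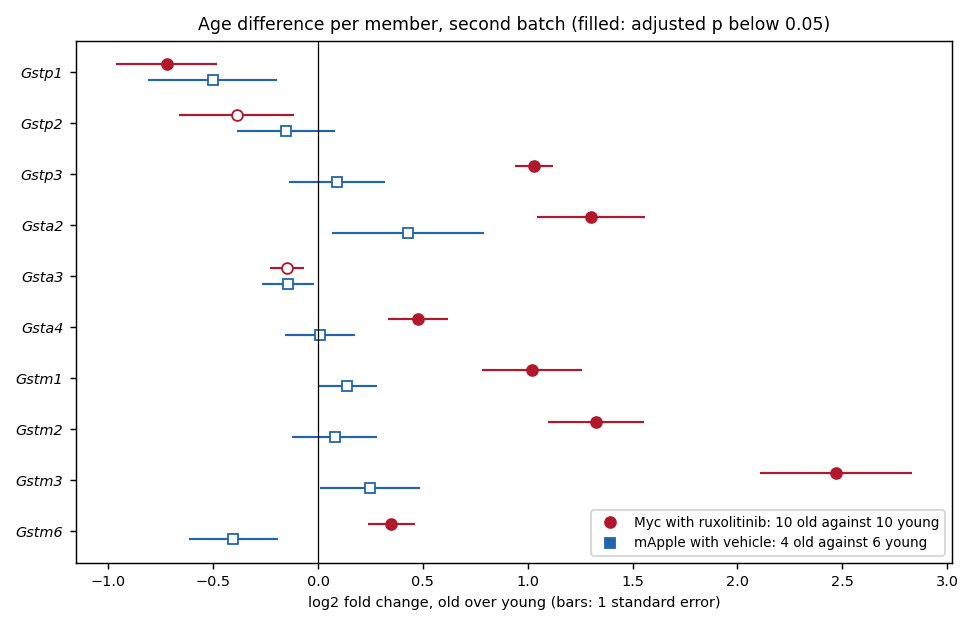
Points give the log2 fold change of old over young livers (horizontal axis, bars 1 SE) for each member (vertical axis), for Myc with ruxolitinib (circles) and mApple with vehicle (squares); filled points passed an adjusted p of 0.05. With Myc and ruxolitinib Gstm3 lies at 2.47 and Gstp1 at -0.72, and with mApple and vehicle they lie at 0.25 and -0.50 with no filled point.

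In mice with mApple and vehicle, 4 old and 6 young livers, no member was called, where 1.1% of 13155 tested genes were. Their log2 fold changes ran from -0.50 (Gstp1) to 0.43 (Gsta2) with a median of 0.04, against 0.00 over all genes. Of the 10 members 0 had an unadjusted p below 0.05, where 2337 of the 13155 genes did. Gstm3 had 98.3, 163, 90.7 and 128 counts per M in old livers, against 65.3 to 152 (median 102) in young livers. The groups overlapped, with a difference of 0.25 ± 0.24 on the log2 scale (SE; adjusted p = 0.62). Gstp1 had 1521, 1187, 508 and 1624 counts per M in old livers, against 1027 to 2326 (median 1864) in young livers, with only library 1137 below the young range. Its log2 fold change was -0.50 ± 0.31 (SE; adjusted p = 0.411). Gstp3 had 13.6, 10.2, 5.6 and 12.6 counts per M in old and 6.8 to 12.1 in young livers, a log2 fold change of 0.09 ± 0.23 (SE; adjusted p = 0.864). Of 11 tested leukocyte markers 4 were higher in the old livers, with sums of 36 to 67.7 counts per M in old and 13.2 to 36.9 in young livers.

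Whether the age difference itself depended on treatment is given by the interaction, which equals the age effect with Myc and ruxolitinib minus that with mApple and vehicle. It passed for Gstp3 alone among the members, with 0.92 ± 0.21 (SE; adjusted p = 0.0498), where 0.103% of 13609 genes were called higher and 0.184% lower. Leaving out 1 of the 4 old mApple vehicle livers ended this call for library 1135 (1.09, adjusted p = 0.0634), 1136 (0.94, adjusted p = 0.0939) and 1137 (0.73, adjusted p = 0.0811), and a fit of all libraries also had no member past the threshold. For Gstm3 the interaction was larger and less certain, at 2.21 ± 0.57 (SE; adjusted p = 0.086). For Gstm2 it was 1.22 ± 0.37 (SE; adjusted p = 0.121), for Gstm6 0.74 ± 0.23 (SE; adjusted p = 0.139) and for Gstm1 0.87 ± 0.37 (SE; adjusted p = 0.279). With DESeq2, Gstm2, Gstm3 and Gstp3 passed. The alpha genes ranged from -0.02 (Gsta3) to 0.86 (Gsta2) and did not pass.

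Myc with ruxolitinib was compared with mApple and vehicle at each age, so both vector and drug differ between these groups. In young livers 2 mu genes were lower with Myc and ruxolitinib, where 14% of 12808 genes were called lower and 13.5% higher. Gstm6 had 42 (lowest), 50.6 (median) and 64.1 (highest) counts per M in young Myc ruxolitinib livers, against 80.8, 93 and 182 in young mApple vehicle livers. Gstm2 had 23.3, 36.2 and 45 counts per M in the same Myc ruxolitinib livers, against 45.9, 54.6 and 63.3 in the mApple vehicle livers. For both genes the ranges did not overlap, with log2 fold changes of -1.0 ± 0.15 for Gstm6 (SE; adjusted p = 5.72e-05) and -0.67 ± 0.14 for Gstm2 (SE; adjusted p = 0.00115). Without library 1134, the highest Gstm6 value, and without each other library in turn, Gstm6 stayed between -1.07 and -0.78. Gstm3 differed by -0.45 ± 0.19 (SE; adjusted p = 0.0926), and passed when library 1123 (adjusted p = 0.0259) or 1133 (adjusted p = 0.0415) was left out. Gsta2 differed by 0.52 ± 0.27 (SE; adjusted p = 0.161) and passed at 0.86 without library 1129 (adjusted p = 0.00843). The other 6 members lay between -0.15 and 0.13. In this comparison 9 of the 15 hepatocyte markers were lower and 1 higher, with sums of 108967 to 136980 counts per M in Myc ruxolitinib livers and 161267 to 255945 in mApple vehicle livers, and their part in the member results was not tested.

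In old livers of the second batch, 10 with Myc and ruxolitinib against 4 with mApple and vehicle, Gstp3 and Gsta2 were higher, where 6.52% of 13761 genes were called higher and 4.35% lower. Gstp3 had 17.4 to 29.6 counts per M (median 22) in Myc ruxolitinib livers and 13.6, 10.2, 5.6 and 12.6 in mApple vehicle livers, with no overlap. Its log2 fold change was 1.06 ± 0.19 (SE; adjusted p = 0.00448), 0.85 to 1.21 when each library was left out, and 0.65, still past the threshold, in a fit of all 58 libraries. Gsta2 had 25.5 to 115 counts per M (median 67.9) in Myc ruxolitinib livers and 12.4, 31.5, 34.8 and 22.3 in mApple vehicle livers, with 7 of 10 above the mApple range. Its difference of 1.37 ± 0.40 (SE; adjusted p = 0.0406) lost the call without any of libraries 1135, 1136, 1137, 1138, 1151, 1152, 1153, 1156 or 1157, where the adjusted p ran up to 0.134, and in the fit of all 58 libraries (0.80, adjusted p = 0.102). The old livers of the first batch were left out of this comparison. There Gstp3 had 21.1 ± 6.36 counts per M in Myc ruxolitinib and 19.6 ± 6.23 in mApple vehicle livers (SD, n = 4 each). Gsta2 had 20.7 ± 6.17 and 27.8 ± 14.1 in the same first-batch livers, the opposite order to the second batch.

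Gstm3 and Gstm1 showed large but uneven differences in the same comparison. Gstm3 had 45.7 to 782 counts per M (median 434) in old Myc ruxolitinib livers and 98.3, 163, 90.7 and 128 in old mApple vehicle livers. Of the 10 livers 8 lay above the mApple range, library 1158 lay below it, and the log2 fold change was 1.77 ± 0.58 (SE; adjusted p = 0.0606). It passed without library 1158 (1.90, adjusted p = 0.0172) or 1155 (1.88, adjusted p = 0.0408). Gstm1 differed by 0.96 ± 0.38 (SE; adjusted p = 0.111), with 9 of 10 livers above the mApple range of 1458 to 2047 and library 1158 below it, and passed without that library (1.06, adjusted p = 0.0431). First-batch livers of these groups had Gstm1 at 3910 ± 833 counts per M with Myc and ruxolitinib (SD, n = 4). With mApple and vehicle they had 4333 ± 790 (SD, n = 4). Their Gstm3 levels were 645 ± 244 and 204 ± 32.8 counts per M, in the same order as the second batch. In the comparison itself DESeq2 called Gstm1 and Gstm3 beside Gstp3 and Gsta2. In this comparison 7 of the 9 endothelial markers were lower; they summed to 117 to 326 counts per M with Myc and ruxolitinib and to 317 to 435 with mApple and vehicle, and their part in the member results was not tested.

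**Figure D4:**
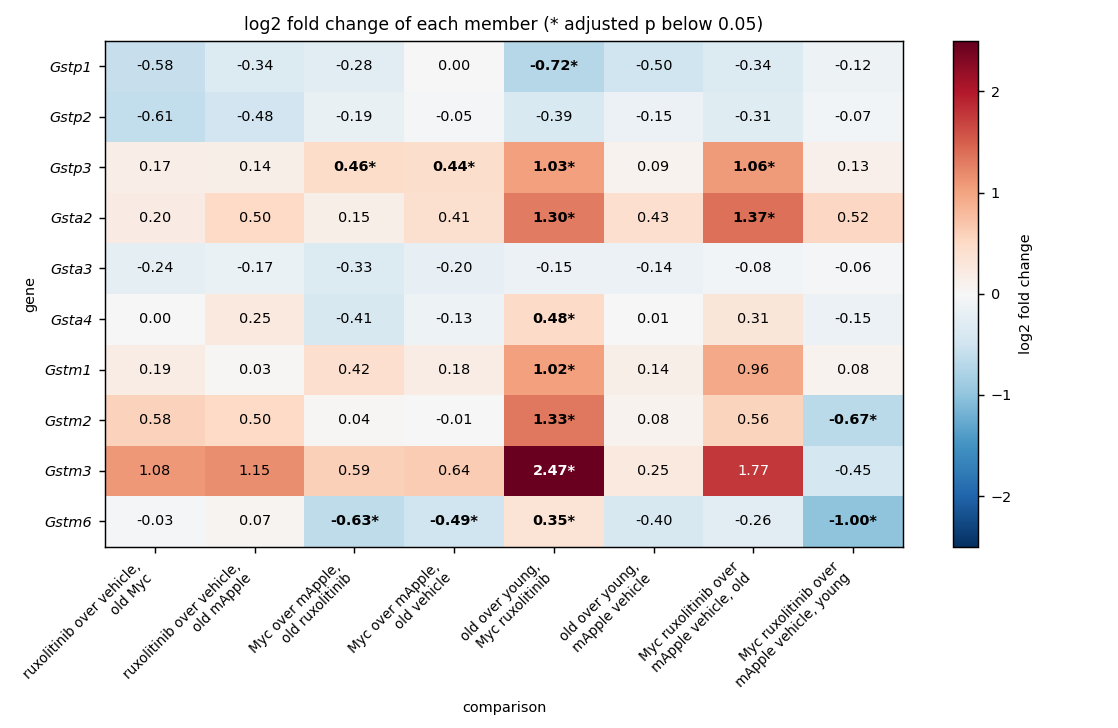
Cells give the log2 fold change of each member (rows) in 8 comparisons (columns), with red for higher and blue for lower in the group named first; an asterisk marks an adjusted p below 0.05. Gstm6 is the only member with asterisks on negative values in both Myc over mApple columns (-0.63 and -0.49), and neither ruxolitinib column has an asterisk.

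The vectors were compared among old mice under each treatment, over both batches. Under vehicle Gstm6 was lower and Gstp3 higher with Myc, where 8.01% of 13547 genes were called lower and 10.8% higher. Under ruxolitinib the same pair was called in the same directions, where 5.96% of 14010 genes were called lower and 8.4% higher. Gstm6 had 47.1 (lowest), 60 (median) and 97.5 (highest) counts per M in old Myc vehicle livers, against 65.4, 87.5 and 121 in old mApple vehicle livers. It had 34.6, 66.1 and 84.9 in old Myc ruxolitinib livers, against 70.9, 98.3 and 108 in old mApple ruxolitinib livers. In each case 8 of the Myc livers, of 11 with vehicle and of 14 with ruxolitinib, lay below the whole mApple range. The log2 fold change of Gstm6 was -0.49 ± 0.12 with vehicle (SE; adjusted p = 0.00902) and -0.63 ± 0.13 with ruxolitinib (SE; adjusted p = 0.00228).

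Within batches Gstm6 kept this direction. With vehicle it was -0.49 ± 0.20 in the first batch (SE; adjusted p = 0.176) and -0.47 ± 0.11 in the second (SE; adjusted p = 0.0355). With ruxolitinib it was -0.66 ± 0.28 in the first (SE; adjusted p = 0.302) and -0.61 ± 0.13 in the second (SE; adjusted p = 0.00887). Leaving out each library in turn kept both calls, and without libraries 860, 861, 864 and 865 the ruxolitinib value was -0.56 (adjusted p = 0.00196).

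Gstp3 had 14.6, 21.8 and 27.5 counts per M in old Myc vehicle livers, against 5.6, 14.1 and 28.7 in old mApple vehicle livers, with all Myc values inside the mApple range. The log2 fold change was 0.44 ± 0.15 (SE; adjusted p = 0.0492). This call was lost within each batch (0.25 in the first, adjusted p = 0.414; 0.68 in the second, adjusted p = 0.112), without the batch term, and without any 1 library other than 862, 866 or 870, where the adjusted p ran up to 0.1. With ruxolitinib the Gstp3 levels were 16.7, 21.5 and 30.4 in Myc livers and 10.1, 15.2 and 21.6 in mApple livers, and 7 of 14 Myc livers exceeded all mApple ones. Its log2 fold change of 0.46 ± 0.12 (SE; adjusted p = 0.0133) was kept without each library in turn. It was 0.40 ± 0.27 in the first batch (SE; adjusted p = 0.471) and 0.50 ± 0.11 in the second (SE; adjusted p = 0.00952).

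The other 8 members were not called with Myc in either treatment. Their log2 fold changes ran from -0.20 (Gsta3) to 0.64 (Gstm3) with vehicle and from -0.41 (Gsta4) to 0.59 (Gstm3) with ruxolitinib. Gsta3 under vehicle reached -0.25 (adjusted p = 0.0482) when the library labelled 870 was left out. With vehicle 8 of the 9 endothelial markers were lower with Myc and 4 of the 15 hepatocyte markers. The endothelial sum ran from 240 to 457 counts per M in Myc and from 317 to 597 in mApple vehicle livers over both batches, and its part in the results was not tested.

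Ruxolitinib was compared with vehicle in old livers of each vector. No member passed, where 0.391% of 13554 genes were called with mApple and 0.545% of 13749 with Myc. With mApple 3 of the 10 members had an unadjusted p below 0.05, where 1327 of the 13554 genes did. With Myc 4 members did, where 1925 of the 13749 genes did. Gstm3 had the largest differences. It ran over 97.9, 131 and 1137 counts per M in old mApple ruxolitinib livers and 90.7, 159 and 225 in old mApple vehicle livers, with 4 of 9 above the vehicle range and the median below that of vehicle. The log2 fold change was 1.15 ± 0.44 (SE; adjusted p = 0.405). In old Myc livers Gstm3 ran over 45.7, 511 and 809 with ruxolitinib and 54, 155 and 825 with vehicle, so the ranges were alike while the medians were not. There the log2 fold change was 1.08 ± 0.41 (SE; adjusted p = 0.272).

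The Gstm3 value was positive in each batch: 1.29 ± 0.58 and 1.03 ± 0.59 with mApple, and 1.04 ± 0.54 and 1.10 ± 0.55 with Myc (SE; first and second batch; adjusted p from 0.227 to 0.612). With mApple the second batch has 1 high ruxolitinib liver, library 1140 at 742 counts per M, while the other 4 had 104 to 131, inside the vehicle range of 90.7 to 163. Gstm2 differed by 0.50 ± 0.18 with mApple (SE; adjusted p = 0.363) and by 0.58 ± 0.27 with Myc (SE; adjusted p = 0.339). Gstp1 differed by -0.34 ± 0.21 with mApple (SE; adjusted p = 0.584) and by -0.58 ± 0.25 with Myc (SE; adjusted p = 0.317), and Gstp2 by -0.48 ± 0.20 (SE; adjusted p = 0.454) and -0.61 ± 0.29 (SE; adjusted p = 0.354). Both pi genes lay between -0.88 and -0.75 in the first batch and between -0.48 and 0.02 in the second. The Gsta3 value differed in sign between batches, with -0.65 in the first and 0.26 in the second for mApple, and -0.82 and 0.18 for Myc. Without libraries 860, 861, 864 and 865 it was 0.09 with mApple and 0.07 with Myc. Other members also differed in sign between batches, none past the threshold. With Myc these were Gsta2 (-0.70 first, 0.82 second), Gsta4 (-0.68 and 0.48), Gstp3 (-0.15 and 0.39) and Gstm6 (-0.40 and 0.22). With mApple they were Gstp1 (-0.75 and 0.02), Gstp3 (-0.33 and 0.57), Gsta4 (-0.03 and 0.50), Gstm1 (-0.39 and 0.40) and Gstm6 (-0.26 and 0.36). In the first batch the leukocyte markers summed to 28.8 to 260 counts per M in old Myc ruxolitinib livers and 42.8 to 94.4 in old Myc vehicle livers, and to 45.2 to 468 in old mApple ruxolitinib livers and 32.4 to 62.6 in old mApple vehicle livers. The Kupffer markers summed to 6009, 3805, 1453 and 551 in the old Myc ruxolitinib livers of that batch, libraries 860, 861, 868 and 869, and to 317 to 726 in old Myc vehicle livers. The cholangiocyte markers summed to 125 to 955 in old mApple ruxolitinib livers and 150 to 257 in old mApple vehicle livers of that batch. The part of these markers in the member values was not tested. The test of a different ruxolitinib effect by vector called 0 of 14046 genes with edgeR and 0 with DESeq2, while 735 genes, none of them a member, had an unadjusted p below 0.05.

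Members also varied together over the 40 libraries of the second batch. These coefficients describe libraries of 6 groups that share depth and scaling. Gstp1 and Gstp2, which share reads, had a Pearson r of 0.887 on log2(counts per M + 1), and Gstm1 and Gstm3 0.861. Gsta2 had 0.78 with Gstm3 and 0.708 with Gsta4. Gstp1 went with neither of these sets over all groups, at -0.136 with Gstm3 and 0.085 with Gstm1. The relation of Gstp1 with Gstm1 had opposite signs inside the groups, at 0.859 over the 10 old Myc ruxolitinib livers and -0.479 over the 10 young ones.

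**Figure D5:**
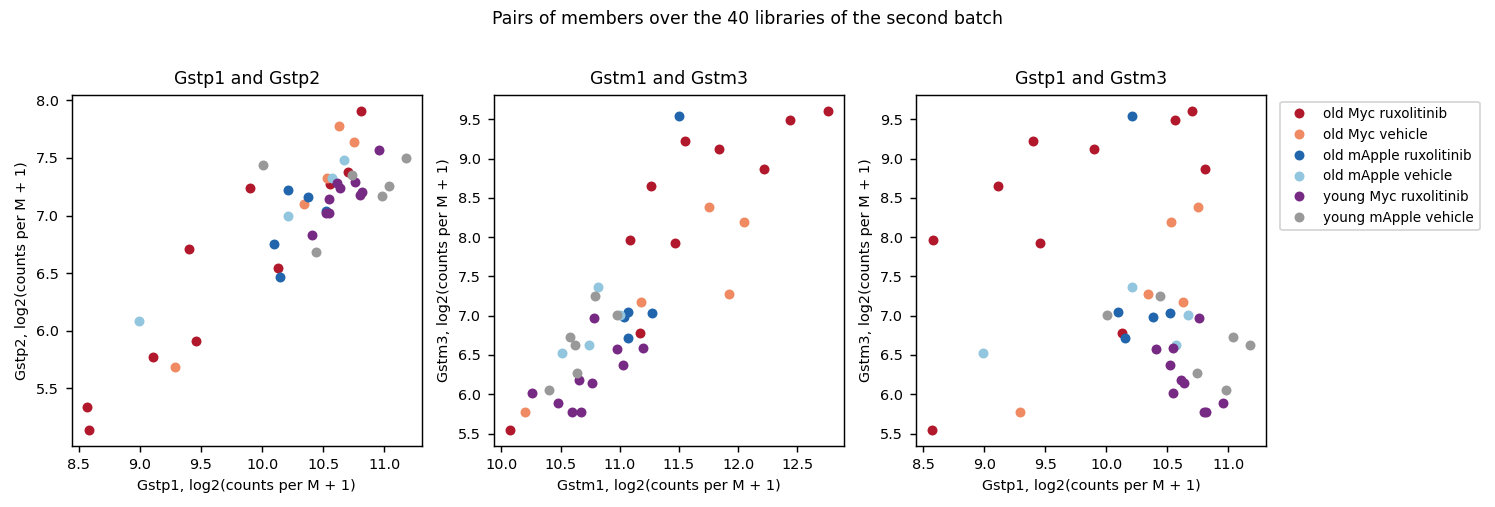
Each point is 1 library of the second batch, with log2(counts per M + 1) of a member on each axis and colour for the group. Gstp1 and Gstp2 (r = 0.887) and Gstm1 and Gstm3 (r = 0.861) lie along a line, while Gstp1 and Gstm3 (r = -0.136) do not.

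The 10 members were then left out, to find the other genes whose pattern was nearest. Among 9832 genes with a mean of at least 5 counts per M, the non-members most like Gsta2 over these 40 libraries were Gm10639 (0.974), Gsta1 (0.914) and Gm3776 (0.893), its neighbours on chromosome 9, of which the first shares the most windows with it. Gm3776 (0.873), Gsta1 (0.871) and Nqo1 (0.841) were the non-members most like Gstm3, where the member Gstm1 of the same cluster had 0.861. Gstm2 and Gstm6, which lie nearer to Gstm3 on the chromosome, had 0.633 and 0.129 with it. Nqo1 encodes a quinone reductase and is a common readout of NRF2. Non-members most like Gstm1, below Gstm3, were Gstm4 (0.838), a mu gene of the same cluster, Gm3776 (0.814) and Gsta1 (0.806), and those most like Gsta4, where the member Gsta2 had 0.708, were Gm10639 (0.735), Gm3776 (0.706) and Gstm4 (0.70). After Gstp2 (0.887), the genes most like Gstp1 were Csad (0.792), an enzyme of taurine synthesis, Mup20 (0.769), a male urinary protein, and Reep5 (0.765), a shaper of endoplasmic reticulum membranes.

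A list of 17 other tested genes held transferases and the prostaglandin synthase Ptgds. In old against young Myc ruxolitinib livers 11 were higher and 3 lower, with a median log2 fold change of 0.65. Over all tested genes 18.1% were called higher and 15.6% lower. Among the 11 are Gsta1, Gm3776 and Gm10639, which share reads with Gsta2. Gsta1 had 67.1 ± 45.5 counts per M in old and 15.5 ± 6.3 in young livers (SD, n = 10 each; log2 fold change 2.14 ± 0.392, SE; adjusted p = 0.00034). The theta gene Gstt1 was higher by 0.63 and the mu gene Gstm5 by 0.65, while the omega gene Gsto1 (-0.36), Gstcd (-0.38) and the microsomal Mgst1 (-0.39), named after their values were seen to complete the count, were lower. In young livers Gsto1 was higher with Myc and ruxolitinib by 0.86 ± 0.0774 (SE; adjusted p = 2.12e-07) and Gstt1 lower by -0.79 ± 0.0692 (SE; adjusted p = 1.56e-07), among 3 higher and 5 lower of 17. Over all genes tested in young livers 13.5% were higher and 14% lower. In old livers of the same comparison 3 of 17 were higher and 0 lower, where 6.52% and 4.35% of all tested genes were. With mApple and vehicle 0 of 17 were called with age, where 1.1% of all tested genes were.

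The gene lists that follow are read against the 18.1% of all tested genes called higher and the 15.6% called lower with age in Myc ruxolitinib livers. Of 18 tested genes of glutathione synthesis and recycling 3 were higher and 2 lower, among them Gss, the second enzyme of synthesis (0.30 ± 0.0762, SE; adjusted p = 0.00469), and Gclc, the catalytic subunit of the first (-0.41 ± 0.135, SE; adjusted p = 0.0225). Of 13 glutathione peroxidases and redoxins 3 were higher and 1 lower, led by Gpx3, the secreted peroxidase, at 1.23 ± 0.214 (SE; adjusted p = 0.000217). Gpx3 was also called with age with mApple and vehicle, at 1.51 ± 0.159 (SE; adjusted p = 0.00312). Of 18 exporters and mercapturate enzymes 2 were higher and 3 lower, with the drug pump Abcb1a at 1.28 ± 0.227 (SE; adjusted p = 0.000254). The counts of the synthesis and export lists are near or below those background shares.

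NRF2 targets outside the family gave 3 higher and 2 lower of 19 tested genes with age in Myc ruxolitinib livers, a median log2 fold change of 0.11, and neither count is above the background share. The 3 higher ones were Nqo1 (1.71 ± 0.284, SE; adjusted p = 0.000134), the carbonyl reductase Cbr3 (2.89 ± 0.518, SE; adjusted p = 0.000279) and Srxn1, which restores oxidised peroxiredoxins (1.06 ± 0.287, SE; adjusted p = 0.00743). Of 22 regulators 2 were higher and 4 lower, with the small Maf partner Mafk at 0.74 ± 0.0972 (SE; adjusted p = 1.13e-05), the NRF2 inhibitor Keap1 at 0.21 ± 0.0543 (SE; adjusted p = 0.00522) and Stat5b at -0.29 ± 0.08 (SE; adjusted p = 0.00752).

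Drug-metabolism genes under CAR, PXR and AHR had 7 higher and 3 lower of 18 with age in Myc ruxolitinib livers. The higher ones include Cyp2b13 (3.66 ± 0.446, SE) and Cyp2b9 (3.75 ± 0.513, SE), which are also in the female-type list below. In the young comparison of Myc and ruxolitinib with mApple and vehicle they had 7 higher and 1 lower of 17. Over all genes tested in young livers 13.5% were called higher and 14% lower. Cyp2b10, the common readout of CAR, had 218 ± 75.8 counts per M in young Myc ruxolitinib livers (SD, n = 10) and 20.4 ± 14.7 in young mApple vehicle livers (SD, n = 6), a log2 fold change of 3.42 ± 0.339 (SE; adjusted p = 6.05e-07). In the same livers no member was called higher, and Gstm2 and Gstm6 were called lower. The part of CAR in the member values was not tested. In old livers the log2 fold change of Cyp2b10 was 3.21 ± 0.855 (SE; adjusted p = 0.0275).

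A list of 20 genes tied to growth hormone and STAT5, the pathway through JAK2, was tested. It holds genes with male-type liver expression and also Socs2 and Cish, feedback inhibitors of that pathway. With age in Myc ruxolitinib livers 11 of the 20 were lower and 2 higher. Hsd3b5, a steroid dehydrogenase of male liver, had 5.69 ± 8.18 counts per M in old and 89.7 ± 25.9 in young Myc ruxolitinib livers (SD, n = 10 each; log2 fold change -3.98 ± 0.608, SE; adjusted p = 5.55e-05). Of 13 female-type genes 4 were higher and 1 lower, with Cyp2b9 at 3.75 ± 0.513 (SE; adjusted p = 1.62e-05). With age in mApple vehicle livers 3 of the 20 genes of the first list were lower, where 1.1% of all tested genes were called in either direction. Among old livers, 5 of these 20 were lower with ruxolitinib in Myc livers, where 0.545% of all tested genes were called in either direction. They were led by Socs2 at -2.47 ± 0.304 (SE; adjusted p = 0.000141), and Cish (-2.09 ± 0.441, SE) was among them. With ruxolitinib in mApple livers 1 of the 20 was lower, where 0.391% of all tested genes were called. With Myc over mApple 5 of 20 were lower under vehicle and 5 of 20 under ruxolitinib, where 8.01% and 5.96% of all tested genes were.

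The RefSeq promoter table (GRCm38.p6, 250 bases before to 50 after the start site) held 9 of the 10 members, all but Gsta4. The 3 motifs below were searched on both strands: the core of the antioxidant response element, TGACNNNGC, which 12.4% of 32851 promoters hold, the STAT motif TTCNNNGAA, which 8.3% hold, and the E-box CACGTG bound by Myc, which 7.15% hold. The only match was the antioxidant core TGACATTGC in Gsta3, which starts 121 bases before the start site on the plus strand. Matches outside this window, such as distal elements, were not searched.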

How the data were processed

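The deposited table holds expected counts (estimated counts) per gene made by the authors: the submitters' processing notes name STAR, HOMER and the builds GRCm38 and mm10, and per the file header raw counts were taken over exons with no strand option and 1 transcript per symbol. Of the values 29.9% are not whole, all with the same fractional part, so they were rounded. The label expected counts does not mean that a model shared reads out between near-copies. How such reads were counted is not given in the sources used here. Without strand, reads of an overlapping antisense gene would be counted for a member.

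Each comparison was fitted with edgeR 4.0.16 quasi-likelihood (R 4.3.3) on its own libraries, with TMM scaling, filterByExpr at 10 counts, and sequencing batch as a covariate for comparisons that span both. Two-sided p-values were adjusted by Benjamini-Hochberg over every gene tested and called below 0.05. SE is the absolute log2 fold change over the root of F. DESeq2 1.42.0, RLE scaling, no filter, batch splits and left-out libraries were alternatives. The fit was tested on simulated data. Named genes were all members, Myc, up to 3 genes of each list per comparison with the smallest p past the threshold, and the 3 genes, members left out, nearest in likeness to a member. The members and the 16 gene lists were chosen with earlier results of these data known. The labels do not say whether libraries are separate animals, so p-values measure the spread between libraries. Depth was 10.68 to 40.98 M counts per library, and the precision it gives is that of the standard errors.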

Additional observations from a re-analysis of the deposited data

Results flagged for a closer look

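In 5 of 40 sets of a member in 1 group of 6 to 10 libraries, the most extreme library lay further from the rest than Dixon's 95% limit allows; chance flags about 1 in 20 such sets. In old mApple ruxolitinib livers library 864 was lowest for Gsta2, at 0.80 on the log2(counts per M + 1) scale (0.746 counts per M, against 26.8 to 62.7 in the other 8 livers), and for Gsta4, at 3.97 (14.7 counts per M, against 58.9 to 123). The same library belongs to the 4 with low hepatocyte gene levels, and without those 4 the ruxolitinib difference with mApple was 0.66 ± 0.26 for Gsta2 (SE; adjusted p = 0.448) and 0.42 ± 0.18 for Gsta4 (SE; adjusted p = 0.487), against 0.50 and 0.25 with them. In old mApple vehicle livers library 1137 was lowest for Gstp1, at 8.99 (508 counts per M, against 960 to 1624).

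In young mApple vehicle livers library 1134 was lowest for Gstp3, at 2.96 (6.8 counts per M, against 10.3 to 12.1), and highest for Gstm6, at 7.52 (182 counts per M, against 80.8 to 95.3). This library had 13.14 M counts in exons, of a total of 20.59 M in its column header. The other libraries of the group had larger shares in exons, such as 17.3 M of 21.3 M in library 1130. The part of this difference in the flagged values was not tested. The effect of Myc and ruxolitinib against mApple and vehicle on Gstp3 differed between old and young livers, by 0.92 on the log2 scale (SE 0.21; adjusted p = 0.0498). This call was lost in 3 of the 4 fits that left out an old mApple vehicle library and in the fit of all 58 libraries (0.51, adjusted p = 0.296).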

How the results depend on the processing

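The 0 member calls for ruxolitinib (both vectors and their interaction) and for age with mApple and vehicle were the same under every alternative run. The 8 calls for age with Myc and ruxolitinib became 6 in a fit of all 58 libraries and were 8 under the other alternatives. For Myc under vehicle the 2 calls became 1 without a batch term, 0 in the first batch alone and 1 in the second batch alone, and 1 to 3 when each library was left out. Under ruxolitinib they became 0 in the first batch alone. For Myc and ruxolitinib against mApple and vehicle, the 2 calls in young livers became 1 in the fit of all libraries. In old livers the 2 calls became 4 with DESeq2 and 4 in the fit of all libraries, and 1 to 4 when each library was left out; the single interaction call with age became 3 with DESeq2, 0 in the fit of all libraries and 0 to 1 when each old mApple vehicle library was left out. With paralog rows summed, Gstp3 is replaced by a row that is mostly Gstp1, so its age value of 1.03 with Myc and ruxolitinib became -0.67. Other called values also took the opposite sign there, in a summed row that was not called. For Gstp3 these were -0.26 (Myc under ruxolitinib), -0.32 (Myc and ruxolitinib in old livers) and -0.22 (interaction with age). For Gstm6 they were 0.17 and 0.38 with Myc under vehicle and ruxolitinib. Outside the summed rows no called value changed sign. Among 2200 alternative values, 115 outside the summed rows changed sign with neither value called. The cause of these changes was not tested, except that single batches hold fewer libraries. No paired analysis was possible because the groups share no replicate numbers. Reads shared by near-copies limit the rows of Gstp1, Gstp2 and Gsta2. The effect of depth was not tested.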
